A study of Mus musculus with 3 samples.

Results

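The axon guidance genes described here are the ligands and receptors of the Eph and ephrin, semaphorin, plexin and neuropilin, Slit and Robo, and netrin, Unc5 and Dcc families. Membership went by symbol alone and the rule holds no measured value, but the set was chosen with earlier results of these data known. The rule took every gene whose symbol begins with Epha, Ephb, Efna or Efnb and a number, or with Sema, Plxn, Robo, Ntn or Unc5. Symbols beginning with Slit and a number of 1 to 3 were taken as well, and in addition Dcc, Nrp1 and Nrp2. The array held probes for 66 such genes, of 16358 genes with a single symbol. Of these, 60 were detected, which means well above background, on 1 or more arrays (of 13184 genes) and 57 on all 3 arrays (of 12429). The rule also took Unc50, which shares its first letters with the Unc5 netrin receptors and is not known as a guidance gene, and the receptor-like gene Unc5cl, and 64 symbols of the families remained without them. Epha6, Plxna4, Nrp2, Ntng2, Unc5cl and Unc5d were not well above background on any array. Efna3, Sema3g, Sema4c, Plxnb2, Plxnb3, Plxnd1, Plxna4os1 and Robo3 matched the rule in the annotation and had no matched probe, so they were not analysed here.

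Transcript levels were measured in RNA of whole mouse embryos with 1-colour microarrays. The 3 groups were MafF-/-:MafG-/-:MafK-/- embryos at E10.5 (triple null), MafF-/-:MafG+/+:MafK-/- embryos at E10.5 and MafF-/-:MafG+/+:MafK-/- embryos at E9.5 (MafG-intact). MafF, MafG and MafK are the small Maf proteins, short bZIP factors that bind DNA as partners of the CNC and BACH factors, and every group lacked MafF and MafK. Each group was 1 array of RNA pooled from 3 embryos of mixed background, so there is no replicate error: "higher" and "lower" describe these 3 arrays, and no difference was tested. The first comparison, of triple null with MafG-intact embryos of the same stage (E10.5), addresses which transcripts differ once the remaining small Maf gene is lost. The second, MafG-intact E10.5 against E9.5, gives the same genes across stages in embryos that keep MafG, and the third sets the triple null pool at E10.5 against the younger MafG-intact pool.

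Growing axons steer by cell-surface receptors that read cues in the tissue around them. Ephrins are membrane-bound ligands of the Eph receptor tyrosine kinases, and the A and B classes differ in how the ligand is held in the membrane. Class 3 semaphorins are secreted and act mostly through neuropilins paired with A plexins, while most membrane semaphorins bind plexins directly. Slits are secreted repellents read by Robo receptors, and netrins attract axons through Dcc and repel them through Unc5 receptors. The same families also act outside the nervous system, among others in blood vessels, somites and neural crest, so whole embryo RNA holds their transcripts from several tissues, and fewer cells of a type cannot be told apart from less RNA per cell.

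A level below is the log2 intensity of a gene minus the 75th percentile of its array, so that 0 stands for that percentile, and levels are set against each other only for the same gene across arrays. The share of probes well above background lay between 69.1% and 70.4%, and precision is limited by there being only 3 arrays. The spread between spots gives a lower limit of the error: for 245 probes printed 10 times, none of them a guidance gene's, the SD of the difference between single spots of the triple null and the MafG-intact E10.5 arrays had a median of 0.47 (log2) at mean levels under -6, 0.20 between -6 and -4, 0.11 between -4 and -2, 0.08 between -2 and 0, and 0.07 above. It leaves out the variation between embryos and pools. Mafg, the deleted gene, was at -7.74 and not above background in the triple null pool, against 0.48 in MafG-intact E10.5 and 1.03 in MafG-intact E9.5, at least 173-fold and at least 253-fold lower. The pools differed in sex markers: Xist was detected in the MafG-intact E10.5 pool and in neither other pool, and 4 genes of the Y chromosome (Uty, Kdm5d, Ddx3y and Eif2s3y) showed the reverse.

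In the triple null pool at E10.5, the largest differences among guidance genes lay in the EphA receptors. Epha1 was 4.13-fold higher than in the MafG-intact pool of the same stage, and Epha3 (3.56-fold), Epha10 (2.41-fold) and Epha5 (2.15-fold) were lower, as were the GPI-anchored semaphorin Sema7a (2.06-fold) and the secreted repellent Slit2 (2.04-fold). Of the 58 guidance genes detected in both pools, 6 were thus apart by 2-fold or more, 1 higher and 5 lower, against 5.45% of all 12529 genes (0.982% higher and 4.47% lower); the members' share was 10.3%. Most guidance genes differed little: 44 of 58 lay within 0.5 on the log2 scale (75.9%, against 82.2% of all genes). Their median difference was -0.16 with 20 above 0 and 38 below, while the median of all genes was 0.06; with normexp correction these medians were -0.07 and 0.11. Unc50 itself differed by 0.08, and without it the median was -0.18 and the 6 genes were the same. With normexp background correction, which adds an offset before the log, 2 of the 6 stayed beyond 2-fold, Epha1 on the higher and Epha3 on the lower side.

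**Figure D1:**
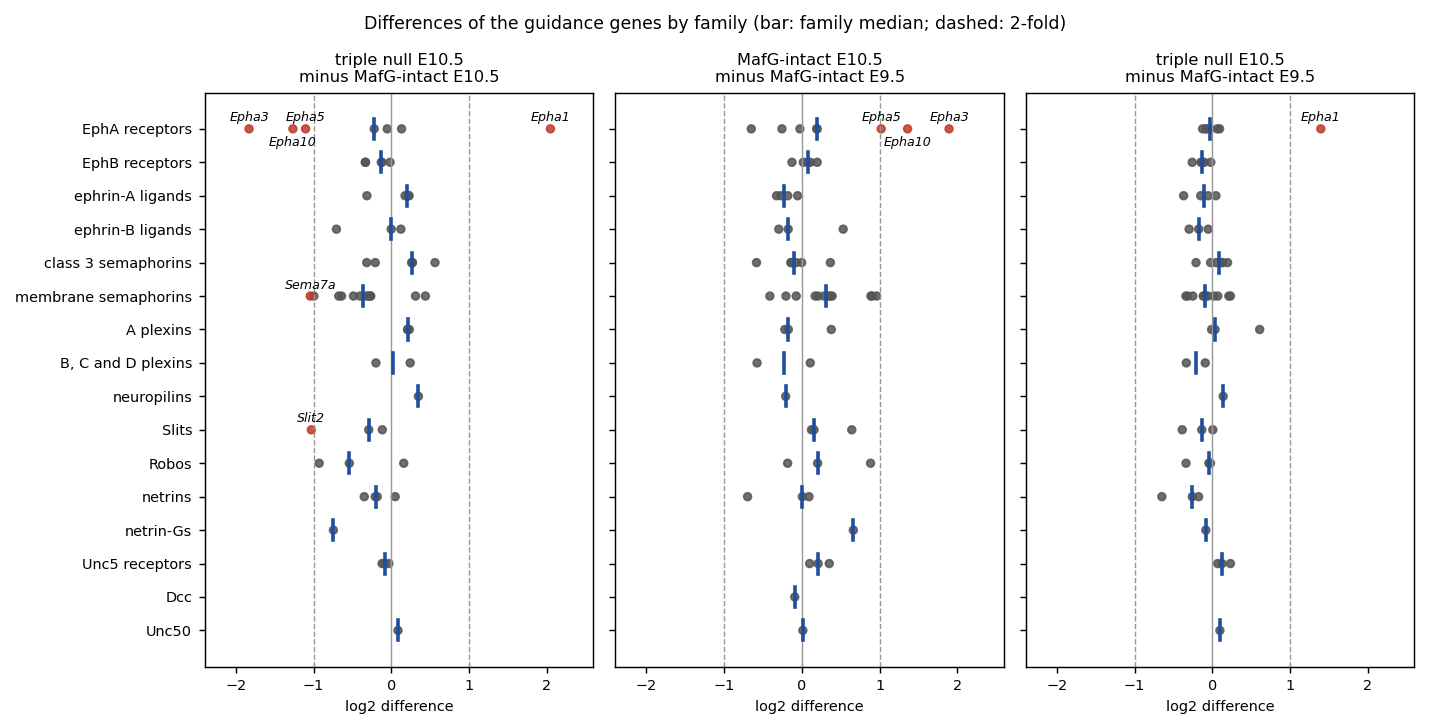
Log2 difference of each guidance gene above background on both arrays, by family, for the 3 comparisons. Points are genes, named and red where at least 2-fold apart (dashed lines), and blue bars are family medians. The EphA row holds 4 of the 6 named genes of the first comparison, all 3 of the second and the single one of the third.

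Epha1, the first described member of the Eph receptor family, was the one guidance gene that was higher in triple null embryos by 2-fold or more. Its level was 0.01 in the triple null pool, against -2.03 in MafG-intact E10.5 and -1.38 in MafG-intact E9.5. The triple null pool was thus high against both MafG-intact pools, by 2.05 and 1.40 on the log2 scale. Epha1 ranked 15 from the highest of 12529 genes in the first comparison and 11 of 12521 in the third, each from 1 probe.

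Epha3, a receptor known from motor and retinal axons, was at -4.13 in the triple null pool, against -2.30 in MafG-intact E10.5 and -4.19 in MafG-intact E9.5. Both of its probes lay the same way: the dimmer one was at -5.49 in the triple null pool, against -3.71 and -5.65 in MafG-intact E10.5 and E9.5, and the brighter one at -2.76, against -0.88 and -2.73. The MafG-intact E10.5 pool was the high one, with the 2 other pools 0.06 apart. Epha10, which lacks an active kinase domain, was at -4.89 in the triple null pool, against -3.62 in MafG-intact E10.5 and -4.98 in MafG-intact E9.5. Epha5, a receptor of topographic maps, was at -3.22 in the triple null pool, against -2.12 in MafG-intact E10.5 and -3.14 in MafG-intact E9.5. In these receptors too the MafG-intact E10.5 pool was the high one, and the triple null pool differed from the E9.5 pool by 0.09 and -0.08. Epha5 rests on 1 of its 2 probes, since the other was not above background on any array, and with that probe averaged in the difference was -0.45.

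The other EphA receptors were close on all arrays or dim. Epha4, a motor axon receptor, was at 0.17 in the triple null pool, against 0.39 in MafG-intact E10.5 and 0.20 in MafG-intact E9.5. Epha2 was at -0.06, against -0.01 and 0.02 in the same order, and Epha7 was 0.13 higher in triple null than in MafG-intact E10.5. Epha8 was not above background in the triple null pool (-7.00), against -6.13 in MafG-intact E10.5 and -6.33 in MafG-intact E9.5, at least 1.77-fold and at least 1.55-fold lower. Over the 7 EphA receptors above background on both E10.5 arrays the median difference was -0.22.

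All 5 EphB receptors had slightly lower levels in triple null than in MafG-intact E10.5 embryos, with a median of -0.13; with normexp correction 4 of 5 were lower. Ephb2 was at -1.04 in the triple null pool, against -0.70 in MafG-intact E10.5 and -0.90 in MafG-intact E9.5. Ephb1 was at -2.13, against -1.80 and -1.87. These 2 were the farthest apart, by -0.34 and -0.33 on the log2 scale. Ephb4, the receptor of venous endothelium, was at 0.56 in the triple null pool, against 0.57 in MafG-intact E10.5 and 0.70 in MafG-intact E9.5, and was the closest. Ephb3 and the kinase-inactive Ephb6 differed between the E10.5 pools by -0.12 and -0.13.

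Of the 4 ephrin-A ligands, 3 were slightly higher in the triple null pool than in MafG-intact E10.5 (median 0.20). Efna2 was at -1.77 in the triple null pool, against -1.45 in MafG-intact E10.5 and -1.40 in MafG-intact E9.5, and was the lower one. Efna4 was at 0.48, against 0.25 and 0.43 in the same order, and Efna1 and Efna5 were higher by 0.22 and 0.18. Of the ephrin-B ligands, the X-linked Efnb1 was at 2.65 in the triple null pool, against 3.36 in MafG-intact E10.5 and 2.83 in MafG-intact E9.5. The MafG-intact E10.5 pool, where Efnb1 was highest, was also the pool with Xist and without Y-linked transcripts, and the part of pool sex in the Efnb1 difference was not tested. Efnb3 was at 2.78 in the triple null pool, against 2.66 and 2.84, and Efnb2, the ligand of arterial endothelium, at -0.53, against -0.53 and -0.23. The ephrin-B median was -0.00, and 0.04 with normexp correction.

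**Figure D2:**
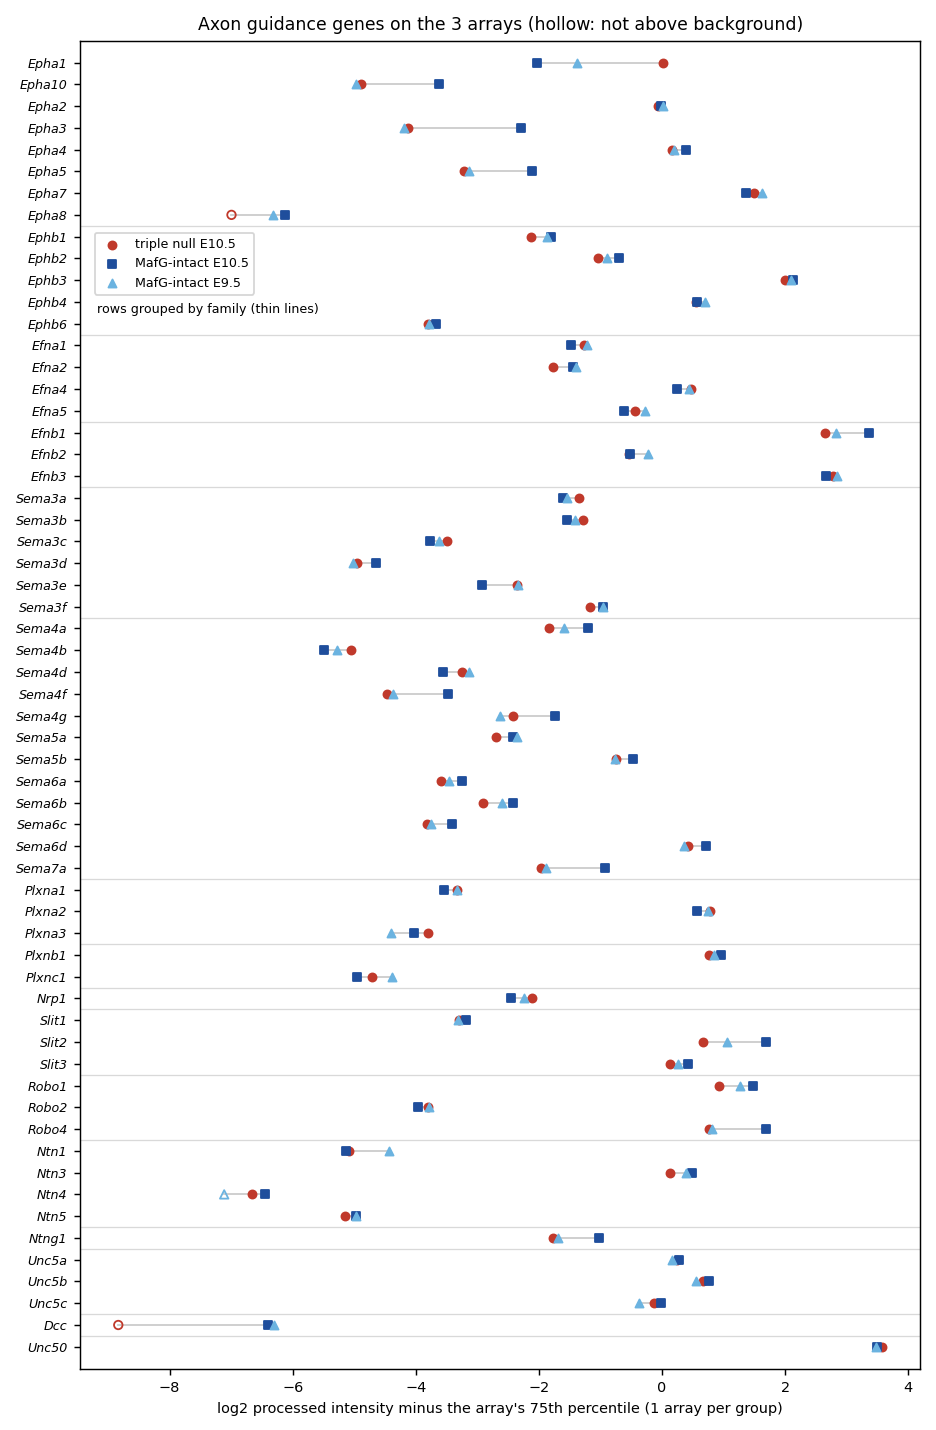
Level of each guidance gene above background on at least 1 array (log2 intensity minus the 75th percentile of the array), with red circles for triple null E10.5, dark squares for MafG-intact E10.5 and light triangles for MafG-intact E9.5; hollow symbols were not above background. Rows are grouped by family, each symbol is 1 array, and symbols are to be set against each other within a row only. Epha1 has the triple null array on its high side, while Epha3, Epha10, Epha5, Slit2, Sema7a and Robo4 have the MafG-intact E10.5 array there.

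The secreted and the membrane-bound semaphorins had medians on opposite sides of 0 at E10.5, each with members of both signs. Of the 6 class 3 semaphorins, 4 were higher in the triple null pool than in MafG-intact E10.5 (median 0.26, range -0.32 to 0.56). Sema3e, which signals through a plexin without a neuropilin, was at -2.36 in the triple null pool, against -2.92 in MafG-intact E10.5 and -2.34 in MafG-intact E9.5. Sema3d was at -4.96, against -4.65 and -5.01 in the same order. Sema3a, Sema3b and Sema3c, each a ligand of neuropilin receptors, differed by 0.27, 0.26 and 0.27, and Sema3f by -0.21. The class 3 median stayed above 0 with quantile, detected-median and normexp processing.

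Of the 12 membrane semaphorins, 10 had lower levels in triple null than in MafG-intact E10.5 embryos, with a median of -0.37 and a range of -1.04 to 0.44. Sema7a, which is held by a GPI anchor and binds integrins as well as plexin C1, was at -1.97 in the triple null pool, against -0.93 in MafG-intact E10.5 and -1.89 in MafG-intact E9.5. Sema4f was at -4.47, against -3.47 and -4.37, and lay just short of the 2-fold threshold. Sema4g was at -2.42, against -1.74 and -2.63, and Sema4a at -1.84, against -1.20 and -1.59. In these 4 genes the MafG-intact E10.5 pool was the highest of the 3. The members above 0 were Sema4b, by 0.44, and Sema4d, the ligand of plexin B1, by 0.31. The class 5 and class 6 members lay between -0.49 and -0.27.

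Semaphorin receptors were little apart. The A plexins Plxna1, Plxna2 and Plxna3, co-receptors for class 3 semaphorins, were each higher in the triple null pool than in MafG-intact E10.5, by 0.21, 0.21 and 0.23. Plxna3, which is X-linked, was at -3.80 in the triple null pool, against -4.03 in MafG-intact E10.5 and -4.41 in MafG-intact E9.5. Plxna1 was at -3.33, against -3.54 and -3.33 in the same order. Plxnb1 was at 0.76, against 0.96 and 0.85, and Plxnc1, a receptor of Sema7a, at -4.72, against -4.96 and -4.38. Nrp1, a receptor for class 3 semaphorins and for VEGF, was at -2.11 in the triple null pool, against -2.46 in MafG-intact E10.5 and -2.25 in MafG-intact E9.5, a difference of 0.35.

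In the Slit and Robo families, the lower values were those of Slit2, Robo4 and Robo1. Slit2, which keeps commissural axons from crossing again, was at 0.66 in the triple null pool, against 1.69 in MafG-intact E10.5 and 1.05 in MafG-intact E9.5. Its 2 probes were at 0.03 and 1.29 in the triple null pool, against 0.92 and 2.46 in MafG-intact E10.5 and 0.42 and 1.68 in MafG-intact E9.5, so both ordered the pools alike. Unlike Epha3, Slit2 was also below the E9.5 pool, by -0.39. Slit3 differed between the E10.5 pools by -0.29 and Slit1 by -0.12. Robo4, the Robo of endothelial cells, was at 0.76 in the triple null pool, against 1.69 in MafG-intact E10.5 and 0.81 in MafG-intact E9.5, which was 1.90-fold lower and under the 2-fold threshold. Robo1, a Slit receptor on axons, was at 0.93, against 1.47 and 1.27 in the same order, and Robo2 differed by 0.16. Of 12 endothelial markers none was at least 2-fold apart between the E10.5 pools, where 5.45% of all genes were. Their median difference was 0.22 (range -0.16 to 0.34). The part of endothelial content in the Robo4 difference was not tested.

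No netrin or Unc5 receptor measured in both E10.5 pools was 2-fold apart between them, and Dcc has only a bound. Ntn3 was at 0.13 in the triple null pool, against 0.48 in MafG-intact E10.5 and 0.39 in MafG-intact E9.5. Ntn4, a basement membrane netrin, was at -6.67, against -6.46 in MafG-intact E10.5, and was not above background in MafG-intact E9.5 (-7.11). Ntn1, the floor plate attractant, was dim, at -5.08 in the triple null pool, against -5.13 in MafG-intact E10.5 and -4.43 in MafG-intact E9.5. Ntn5 differed between the E10.5 pools by -0.18. The netrin median of -0.20 between the E10.5 pools was 0.20 with normexp correction, so it has no settled direction. Ntng1, a GPI-anchored netrin-G that does not bind Dcc, was at -1.77 in the triple null pool, against -1.03 in MafG-intact E10.5 and -1.69 in MafG-intact E9.5. Unc5a, Unc5b and Unc5c lay between -0.12 and -0.03 on the log2 scale in that comparison. Unc5c was at -0.14 in the triple null pool, against -0.02 and -0.37, and Unc5b at 0.67, against 0.76 and 0.55. Dcc was not above background in the triple null pool (-8.84), against -6.40 in MafG-intact E10.5 and -6.31 in MafG-intact E9.5, at least 1.47-fold and at least 1.56-fold lower.

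By role, the 33 ligands had a median difference of -0.27 between the E10.5 pools, with 2 lower by 2-fold or more (4.47% of all genes were), and the 24 receptors -0.10, with 1 higher (0.982% of all genes) and 3 lower. With normexp correction the ligand median was -0.06, with 16 above 0 and 17 below, and the receptor median -0.09. The Eph receptors (12 genes, median -0.18, 10 below 0) and the ephrins (7 genes, median 0.12, 3 below 0) lay on opposite sides of 0, as did the semaphorins (18 genes, median -0.28, or -0.12 with normexp correction) and the plexins (5 genes, median 0.21). Where several probes of a gene were used, the probes agreed in sign for 14 of 15 genes, and the largest gap between the probes of a gene was 0.60, in Sema6a.

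**Figure D3:**
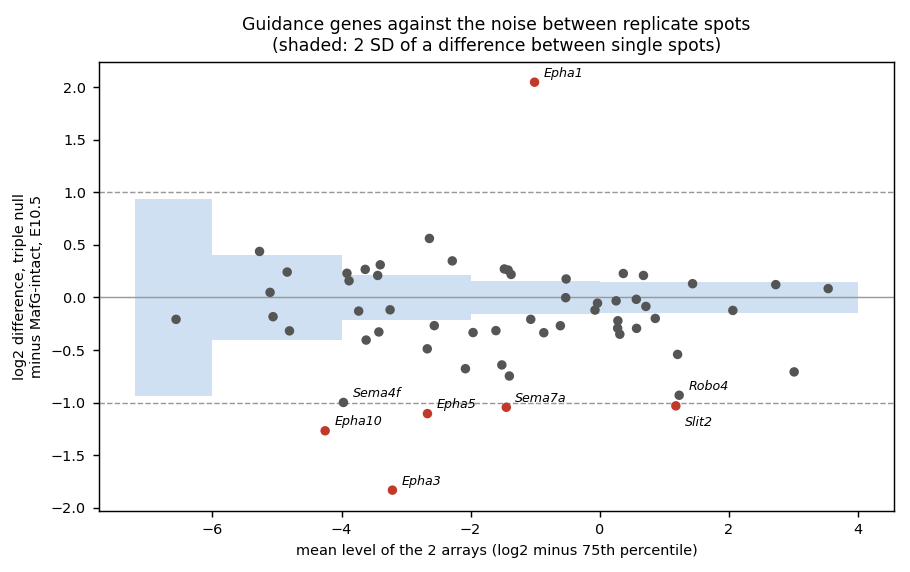
Log2 difference between the triple null and the MafG-intact E10.5 arrays of each guidance gene, against its mean level on both arrays (log2 intensity minus the 75th percentile). The shaded band is 2 SD of a difference between single spots, by level, and dashed lines mark 2-fold; genes beyond or near 2-fold are named. Epha1 lies above the band and Epha3, Epha10, Epha5, Sema4f, Sema7a, Robo4 and Slit2 below it. Unnamed genes also lie outside the band, among them Sema3e (0.56) and Nrp1 (0.35) above and Ntng1 (-0.75) and Efnb1 (-0.71) below. The band covers spot noise only, not the variation between embryos.

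Promoter sequences are shown for 3 of these genes because the deleted factor belongs to a DNA-binding family: Epha1, the one member 2-fold or more higher in the triple null pool than in both others, Epha3, the lowest by difference, and Sema7a, the one of the 6 genes with a match to the small Maf core. They are the 250 bases before the gene start on the gene's own strand, from RefSeq on build GRCm38.p6, at chr6:42373269-42373518 (minus strand) for Epha1, chr16:63864176-63864425 (minus strand) for Epha3 and chr9:57939862-57940111 (plus strand) for Sema7a. Capitals mark matches, on either strand, to TGACNNNGC, the core bound by dimers of a small Maf with a CNC factor, and to CAGNTG, the E-box read by bHLH factors.
Epha1: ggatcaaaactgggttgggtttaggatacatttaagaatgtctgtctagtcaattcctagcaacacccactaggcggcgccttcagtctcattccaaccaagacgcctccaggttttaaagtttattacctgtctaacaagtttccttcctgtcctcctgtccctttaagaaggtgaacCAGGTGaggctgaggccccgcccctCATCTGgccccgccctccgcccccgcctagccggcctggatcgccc
Epha3: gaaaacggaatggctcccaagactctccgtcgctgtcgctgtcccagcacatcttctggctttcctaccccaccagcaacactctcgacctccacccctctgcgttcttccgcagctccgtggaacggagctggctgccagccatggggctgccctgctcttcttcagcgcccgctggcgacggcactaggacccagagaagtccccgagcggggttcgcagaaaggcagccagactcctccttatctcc
Sema7a: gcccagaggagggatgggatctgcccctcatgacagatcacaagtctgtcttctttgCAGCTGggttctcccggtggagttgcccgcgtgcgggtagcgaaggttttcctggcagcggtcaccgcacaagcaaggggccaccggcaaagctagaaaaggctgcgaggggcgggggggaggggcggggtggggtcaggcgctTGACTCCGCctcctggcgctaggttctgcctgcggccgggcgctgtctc

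Epha1 held 2 E-box matches and no small Maf core in this window, and Epha3 neither. Sema7a held 1 of each, the small Maf core being TGACTCCGC, beginning 49 bases before the gene start. Of the other genes at least 2-fold apart, the windows of Epha10 (chromosome 4), Epha5 and Slit2 (both chromosome 5) held no small Maf core. Among the 56 guidance genes with a promoter in the RefSeq table, TGACNNNGC was found in 6 (10.7%; Efna5, Efnb2, Ntn4, Sema4a, Sema4d and Sema7a), against 11.5% of all 27025 genes, and CAGNTG in 23 (41.1%), against 48.2%. Matches of the 2 motifs overlapped each other in 215 of all windows. These are letters in a short window and not measured binding sites.

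Between the MafG-intact pools of E10.5 and E9.5, guidance genes were again mostly close. Of 59 detected at both stages, 3 were 2-fold or more higher at E10.5 and none lower, a share of 5.08%, against 5.19% of all 12514 genes (4.12% higher and 1.07% lower). The 3 were Epha3 (3.72-fold), Epha10 (2.57-fold) and Epha5 (2.03-fold), by the levels given above. Epha5 was at a log2 difference of 0.97 with quantile normalization, and with normexp correction none of the 3 reached 2-fold. The first and the second comparison use the same MafG-intact E10.5 array, so its values enter both.

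Next in size between the stages were Sema7a (1.95-fold higher at E10.5), Sema4f (log2 difference 0.90), Sema4g (0.89) and Robo4 (1.85-fold). Slit2 was 1.56-fold higher. On the lower side were Ntn1 (-0.70), Epha1 (-0.65, or 1.57-fold lower), Sema3e and Plxnc1 (each -0.58). By family, 9 of 12 membrane semaphorins (median 0.32, or 0.16 with normexp correction), all 3 Slits (0.16) and all 3 Unc5 receptors above background (0.21) were higher at E10.5, while all 4 ephrin-A ligands (-0.23) and 5 of 6 class 3 semaphorins (-0.11) were lower. The median of all guidance genes was 0.09, against -0.05 for all genes, and was -0.00292 with normexp correction.

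Set against the younger MafG-intact pool, the triple null pool at E10.5 was 2-fold or more apart in 1 of 57 guidance genes, Epha1 (2.63-fold higher), which is 1.75%, against 0.783% of all 12521 genes (0.256% higher and 0.527% lower). Within 0.5 on the log2 scale lay 54 of 57 members (94.7%), against 95.8% of all genes. The other 2 outside that window were Plxna3, 0.61 higher, and Ntn1, -0.65. Epha3, Epha10, Epha5, Sema7a and Sema4f, each lower in triple null than in MafG-intact E10.5 embryos, differed from the E9.5 pool by 0.06, 0.09, -0.08, -0.08 and -0.10. Slit2, also lower there, differed from the E9.5 pool by more, -0.39. Family medians lay between -0.26 (netrins) and 0.14 (Nrp1, the one neuropilin measured). This comparison shares its triple null array with the first and its E9.5 array with the second.

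Genes beside these families in the same pathways were read from lists chosen by function. Of 30 intracellular signalling genes of guidance receptors above background on both E10.5 arrays, 3 were lower in the triple null pool by 2-fold or more and none higher, with a median of -0.01 (4.47% of all genes were lower and 0.982% higher by 2-fold or more). They were Dpysl4 (-1.15), a collapsin response mediator of semaphorin signalling, Cdk5r1 (-1.15), the neuronal activator of Cdk5, and Pak3 (-1.11), a kinase downstream of Rac and Cdc42. Of 28 other guidance cues and co-receptors, 6 were at least 2-fold lower and none higher (median -0.13). The farthest were the axonal adhesion gene Cntn2 (-3.26), the BDNF receptor gene Ntrk2 (-1.91), the contactin gene Cntn1 (-1.77) and the L1 family gene Chl1 (-1.35). Between the MafG-intact stages, 2 signalling genes were at least 2-fold higher at E10.5 and 1, Rnd1 (-1.37), lower, and 5 other cues were higher and 1, Ptk7 (-1.32), lower, where 4.12% of all genes were higher and 1.07% lower. Against the E9.5 pool, no gene of either list was 2-fold apart in the triple null pool, where only 0.783% of all genes were.

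Markers of cell types were read from fixed lists as well. Between the E10.5 pools, 4.47% of all genes were lower and 0.982% higher in triple null by 2-fold or more. All 12 pan-neuronal markers were above background on every array, and 11 of 12 were 2-fold or more lower in triple null than in MafG-intact E10.5 embryos (median -1.88, range -2.53 to -0.44). Their mean level was -1.40 in the triple null pool, 0.51 in MafG-intact E10.5 and -1.44 in MafG-intact E9.5. The MafG-intact E10.5 pool is the highest here, as it is for Epha3, Epha5, Epha10, Sema7a and Slit2. Its mean was also highest for erythroid markers (3.38, against 2.23 in triple null and 2.66 in MafG-intact E9.5). The same held for macrophage markers (-3.87, against -6.81 and -6.57, dim levels included) and, by less, for neural progenitor and neural crest markers. It did not hold for endothelial or somite markers. The part of neuronal or other cell content in the guidance gene differences was not tested. Of 10 neural progenitor markers, 1 was lower, Fabp7 (-1.44), and the median was -0.20. Of 8 erythroid markers 5 were lower (median -1.16), and of 8 macrophage markers on the array 3 were above background on both E10.5 arrays and all 3 were lower (median -1.22). The macrophage markers Adgre1, Cx3cr1, Aif1, C1qa and Mrc1 were above background in MafG-intact E10.5 and not in the triple null pool, so this median leaves them out. None of 7 neural crest and Schwann precursor markers (median 0.02) or 8 somite and paraxial mesoderm markers (median -0.16) was 2-fold apart.

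**Figure D4:**
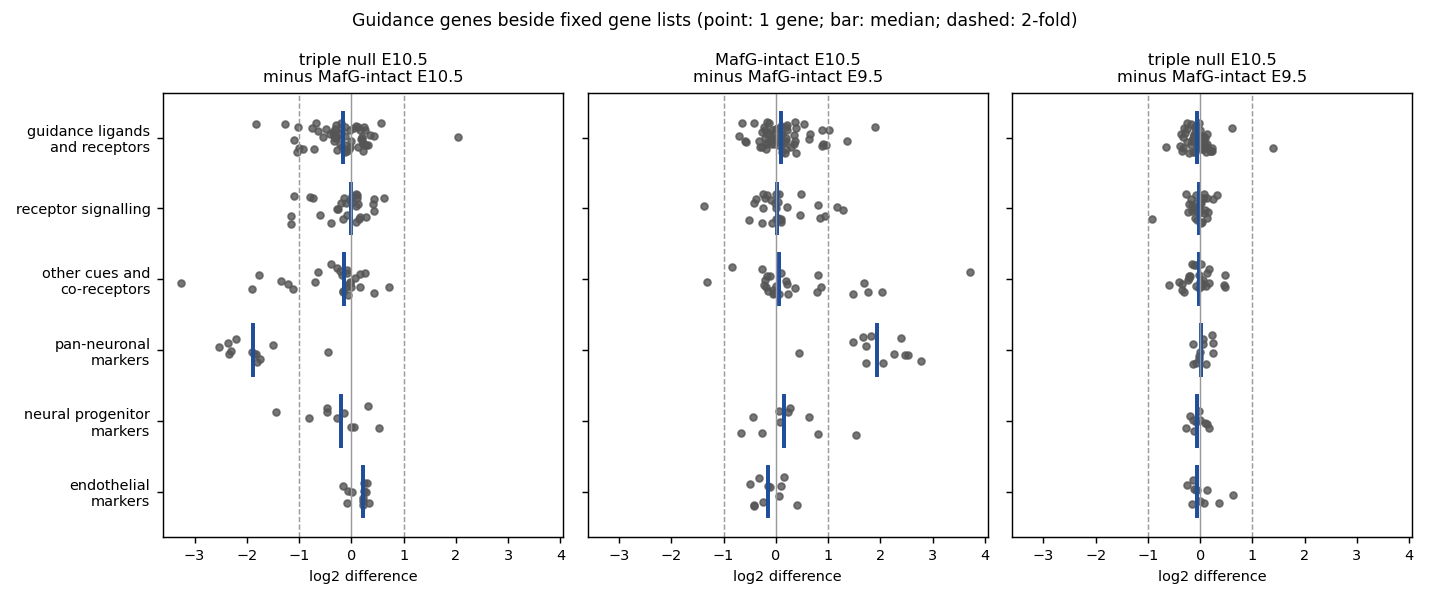
Log2 difference of each guidance gene and of genes from 5 lists (receptor signalling, other cues and co-receptors, pan-neuronal, neural progenitor and endothelial markers) for the 3 comparisons. Points are genes above background on both arrays, blue bars are medians and dashed lines mark 2-fold. The pan-neuronal medians of -1.88 and 1.94 in the first and the second comparison stand beside guidance gene medians of -0.16 and 0.09, and in the third comparison all medians are close to 0.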

How the data were processed

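RNA of pooled embryos was labelled with Cy3 and hybridised to 3 one-colour arrays, all on slide 1 in scan 1. The deposited intensity values came straight from the scanner; per the file headers the authors used Agilent Feature Extraction 9.5.3.1, protocol GE1-v5_95_Feb07 and array design 014868 (annotation build mm7), and the processed signal is background-subtracted. The 75th percentiles subtracted were 1078, 1420 and 1064 intensity units for the triple null and the 2 MafG-intact arrays (E10.5, then E9.5). The value table beside them matched the same signal within 0.497%, uncentred and linear, with medians of 84.0, 115 and 83.4.

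Control and outlier spots were left out, spots of a probe were averaged, and 22950 of 41174 probes were named through their accession in a RefSeq table of GRCm38.p6. The probes of a gene were averaged over those detected (well above background) on any array. A gene was counted when above background on both arrays and at least 2-fold apart; with 1 side below background, the bright level is divided by the dim signal, or by the lowest detected signal of that array if higher, and given as "at least N-fold". No p-value is given.

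The guidance genes, lists, alternatives and rules were chosen with earlier results of these data known. Values on all 3 arrays are given for members at least 2-fold apart and, in families without one, for the 2 farthest apart; other members were named after their values were seen, and up to 4 genes per list were named. The alternatives were normexp (offset 50, on median spot intensity), quantile normalization, scaling on detected genes, filters on dim probes, the brightest probe, the value table and thresholds of 1.5-fold and 3-fold. The steps were tested on simulated data. Python 3.11.15 (numpy 2.4.6, pandas 2.3.3, matplotlib 3.10.9) and R 4.3.3 (limma 3.58.1) were used.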

Additional observations from a re-analysis of the deposited data

How the results depend on the processing

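No paired analysis was possible because each group was 1 array, and no replicate could be left out. Over the 3 comparisons, 66 counts and medians of guidance genes were recomputed under other settings, of which 53 stayed within 1.5 times the count or within the spot noise of the median. That noise is the SD of a difference between single spots (0.10, 0.10 and 0.11 in the 3 comparisons), a wide limit for a median. The medians of the second and the third comparison, 0.09 and -0.06, were smaller in size. Any shrinking of these short of a change of sign thus counted as stayed, as did the shift from -0.16 to -0.07 with normexp in the first. The count of genes at least 2-fold apart between triple null and MafG-intact E10.5, 6 as reported, was 2 with normexp, 1 among the 22 members at or above the median level (1.45% of all such genes), 12 at 1.5-fold (13.8% of all genes) and 2 at 3-fold (2.18%). Between MafG-intact E10.5 and E9.5 the count of 3 was 0 with normexp (2.04% of all genes), 0 of 22 at or above the median level (1.35%), 11 at 1.5-fold (13.6%) and 1 at 3-fold (1.93%), and the median of 0.09 turned to -0.00292 with normexp. In the triple null pool against MafG-intact E9.5 the count of 1 was 3 of 66 with no filter on dim probes (3.16%), 0 of 22 at or above the median level (0.193%), 3 at 1.5-fold (3.03%) and 0 at 3-fold (0.224%). The stricter settings keep fewer genes by construction; the cause of the normexp changes was not tested. Normexp counted 267, 255 and 27 of all genes in the 3 comparisons, against 683, 650 and 98. Of 89 values of single genes at least 2-fold apart, 79 stayed so, but some of these could not change. Leaving out Unc50 or the X-linked members drops other genes only, and the value table holds the same signal. The 79 are thus no measure of stability. The remaining 10 fell short, all with the same sign. They were, between triple null and MafG-intact E10.5, Epha10 (-0.40), Epha5 (-0.72), Sema7a (-0.90) and Slit2 (-0.98) with normexp and Epha5 (-0.45) with no filter, and between the MafG-intact stages Epha10 (0.46), Epha3 (1.00 after rounding) and Epha5 (0.70) with normexp and Epha5 with quantile normalization (0.97) and with no filter (0.82). Leaving out Unc50 or the X-linked members, chosen after seeing the data, could change no count, since no gene counted was Unc50 or X-linked. Signal over background limits what can be said of dim genes.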

Other observations

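Epha1 was 1 gene from 1 probe, so the measured genes beside it in the annotation on chromosome 6 were read as well, chosen after its value was seen. On one side Zyx, Fam131b and Casp2 differed between triple null and MafG-intact E10.5 by -0.03, -0.49 and -0.17, and against the E9.5 pool by -0.10, -0.25 and 0.05. On the other side Olfr457 differed by -0.03 and -0.18, Olfr456 by 0.71 and 0.59, and Tcaf2 by -0.32 and -0.03 in the same order. Olfr456 was dim, at -5.85 in the triple null pool, against -6.56 in MafG-intact E10.5 and -6.44 in MafG-intact E9.5. None of the 6 neighbours was 2-fold apart in either comparison, where 5.45% and 0.783% of all genes were. With shares this low, a count of none among 6 genes says little about the Epha1 difference.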
